A study of Mus musculus with 6 samples.

Results

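Chromatin recovered with the odd probe set against Tug1 RNA was described at 3288 autosomal regions that both odd pulldowns of mouse podocytes shared. Peaks of the 2 odd libraries, each called by the authors against its own input DNA, were pooled and merged where they overlapped by at least 1 bp, which gave 55495 autosomal regions. Members were chosen by the presence of a peak in both lists, and the 3288 that qualified made up 5.92% of these. The series as a whole held 113114 merged regions over its 4 pulldowns. Of the shared odd regions, 1406 had no overlapping peak in either even-probe list (called odd-only below) and 1882 also had one (also-even). All libraries came from 1 immortalised kidney podocyte line, carrying a temperature-sensitive SV40 T antigen, at passages 10 to 12, grown at 33 degrees and differentiated for 10 days at 37 degrees. Cells were crosslinked with glutaraldehyde, an aliquot of 1% served as input DNA, and library fragments of 200 to 400 bp were selected. The groups used here were odd-probe pulldowns 1 and 2, even-probe pulldowns 1 and 2, and input DNA 1 and 2, the last entering only through the authors' peak calling. No treatment or genotype set the groups apart, and a pulldown with probes to an unrelated RNA was not analysed here. Peak positions carry no expression values, so the podocyte label was not checked against marker genes. Nothing in the labels says whether the replicates were separate cultures.

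Tug1 is a long noncoding RNA found in both nucleus and cytoplasm, first described as a transcript raised by taurine and studied since for its association with Polycomb repressive complexes and, in podocytes, with the mitochondrial coactivator gene Ppargc1a. Podocytes are the epithelial cells that wrap the capillaries of the kidney glomerulus, and their interlocking foot processes are joined by the slit diaphragm. In chromatin isolation by RNA purification (ChIRP-seq), biotinylated oligonucleotides tiled along an RNA capture that RNA with the crosslinked chromatin around it, and the DNA that comes with it is read out. Here 48 oligonucleotides were divided by their order along the RNA into an even and an odd set. A site bound through the RNA should be recoverable by either set, while DNA that 1 set of oligonucleotides binds directly need not be shared, which is why ChIRP designs use 2 sets.

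Of the shared odd regions, 56 overlapped a RefSeq promoter window, taken as the 250 bases before to the 50 after an annotated start (GRCm38.p6, the same assembly as mm10). Printed here are windows that show the kinds of promoter involved, 5′ to 3′ on the gene's strand, with the bases covered by a peak of both odd libraries in capitals. Ly75 (chr2:60383224-60383523, minus strand), an endocytic receptor gene of dendritic cells, had the highest odd replicate 2 score among coding promoters outside a stretch of near-identical predicted genes on chromosome 6. Regions with a peak in all 4 pulldowns lay at Tuba1c (chr15:99029641-99029940, plus strand), an alpha-tubulin gene, and at Vps29 (chr5:122354078-122354377, plus strand), a subunit gene of the retromer sorting complex. Another lay at Il1b (chr2:129371090-129371389, minus strand), the interleukin 1 beta gene. Even peaks were matched to the whole region, not to the promoter window. Tada2b (chr5:36484236-36484535, minus strand), a subunit gene of the SAGA acetyltransferase complex, was odd-only. Vmn2r43 (chr7:8260550-8260849) and Vmn2r39 (chr7:9030633-9030932), both on the minus strand, are odd-only genes of the vomeronasal receptor family that share sequence. Tuba1c, Vps29, Tada2b and Il1b were chosen after their values were seen.
Ly75: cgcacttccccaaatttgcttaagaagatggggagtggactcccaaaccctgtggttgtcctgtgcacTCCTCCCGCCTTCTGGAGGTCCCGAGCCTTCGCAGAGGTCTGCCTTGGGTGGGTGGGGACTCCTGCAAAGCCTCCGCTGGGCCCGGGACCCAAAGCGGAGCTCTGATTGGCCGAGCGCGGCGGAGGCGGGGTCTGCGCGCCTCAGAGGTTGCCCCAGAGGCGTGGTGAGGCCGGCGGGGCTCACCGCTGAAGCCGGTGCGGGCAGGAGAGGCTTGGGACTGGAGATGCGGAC
Tuba1c: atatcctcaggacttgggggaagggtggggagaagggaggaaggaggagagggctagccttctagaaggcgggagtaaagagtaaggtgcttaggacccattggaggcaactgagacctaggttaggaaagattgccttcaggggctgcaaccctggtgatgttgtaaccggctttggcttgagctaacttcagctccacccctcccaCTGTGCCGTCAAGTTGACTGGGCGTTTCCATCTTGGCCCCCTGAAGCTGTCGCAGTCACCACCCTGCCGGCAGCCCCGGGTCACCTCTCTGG
Vps29: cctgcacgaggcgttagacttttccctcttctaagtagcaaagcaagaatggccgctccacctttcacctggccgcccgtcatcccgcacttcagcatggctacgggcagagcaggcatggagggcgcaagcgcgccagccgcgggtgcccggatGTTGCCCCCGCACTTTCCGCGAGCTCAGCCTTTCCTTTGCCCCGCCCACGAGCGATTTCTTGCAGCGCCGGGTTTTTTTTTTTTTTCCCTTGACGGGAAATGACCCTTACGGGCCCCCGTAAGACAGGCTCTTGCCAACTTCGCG
Tada2b: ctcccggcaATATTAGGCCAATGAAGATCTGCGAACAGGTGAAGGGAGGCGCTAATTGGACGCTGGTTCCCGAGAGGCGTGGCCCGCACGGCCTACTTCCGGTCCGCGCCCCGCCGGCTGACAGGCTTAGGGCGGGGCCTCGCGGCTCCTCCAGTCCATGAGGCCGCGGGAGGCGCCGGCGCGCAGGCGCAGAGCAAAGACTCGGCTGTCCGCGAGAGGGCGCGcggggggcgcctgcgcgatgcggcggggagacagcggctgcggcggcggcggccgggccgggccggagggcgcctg
Il1b: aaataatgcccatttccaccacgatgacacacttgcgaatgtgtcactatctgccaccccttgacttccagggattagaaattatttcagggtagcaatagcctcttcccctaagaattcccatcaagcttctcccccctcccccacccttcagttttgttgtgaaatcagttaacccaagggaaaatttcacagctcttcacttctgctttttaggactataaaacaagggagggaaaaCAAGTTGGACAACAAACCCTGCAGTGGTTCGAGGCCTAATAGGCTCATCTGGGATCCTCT
Vmn2r43: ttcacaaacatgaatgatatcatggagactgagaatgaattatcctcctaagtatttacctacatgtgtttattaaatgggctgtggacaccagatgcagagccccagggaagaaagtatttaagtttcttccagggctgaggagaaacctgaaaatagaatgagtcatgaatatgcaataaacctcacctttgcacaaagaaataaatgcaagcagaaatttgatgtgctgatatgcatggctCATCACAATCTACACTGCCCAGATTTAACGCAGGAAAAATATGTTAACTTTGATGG
Vmn2r39: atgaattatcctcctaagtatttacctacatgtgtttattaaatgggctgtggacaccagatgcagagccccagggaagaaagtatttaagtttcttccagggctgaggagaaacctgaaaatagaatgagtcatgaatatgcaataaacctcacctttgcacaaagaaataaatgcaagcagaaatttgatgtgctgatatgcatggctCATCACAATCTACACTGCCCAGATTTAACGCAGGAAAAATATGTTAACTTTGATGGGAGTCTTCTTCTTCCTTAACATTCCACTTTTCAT

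In Ly75 the odd peaks of both libraries covered 232 of the 300 bases, from upstream of the start to the end of the window. In Tuba1c they covered the last 92 bases, and in Il1b the last 60, so that the covered part lay around and after the start. In Vps29 the last 145 bases were covered. The Tada2b window was covered over 215 bases, all upstream of the start. The windows of Vmn2r43 and Vmn2r39 were identical over all 266 bases that overlap once they are offset against each other, and both regions were 288 bp wide. Reads from these copies cannot be told apart within that stretch, so the peaks of the pair are not independent.

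Tug1 itself (gene ID 544752, chr11:3639785-3648814, minus strand, 9030 bp) held 3 of the shared regions, all also-even. The odd replicate 1 list had 5 peaks in the gene, covering 38.0% of it, and odd replicate 2 had 3, covering 53.4%. The even replicates had 3 peaks each, with a coverage of 59.9% and 53.1%. In odd replicate 1, where the first region was split into 3 peaks of 595, 374 and 969 bp, odd replicate 2 had a single peak of 2982 bp. Odd replicate 2 scores were 3100, 1394 and 1085 from the far end towards the start of the gene, against a list median of 221. Even replicate 2 scores at the same places were 3100, 1725 and 1199. The score was assigned to each peak by the authors' software on an unstated scale, so it is compared within a list only. No shared region overlapped the Tug1 promoter window or lay inside Morc2a, the gene on the opposite strand beside it, although 2 of the Tug1 regions lay within 5 kb of Morc2a. Because the oligonucleotides can bind the DNA of the gene, peaks at Tug1 do not by themselves show recovery through RNA.

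**Figure D1:**
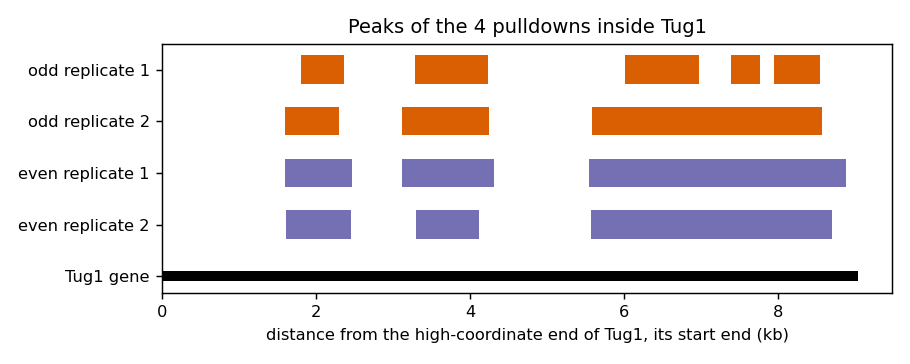
Peaks of each pulldown inside Tug1, drawn as bars against the distance in kb from the gene's high-coordinate end, which is its start end. The odd replicate 1 peaks lie within the spans of the odd replicate 2 peaks or overlap them, and the widest block in the part farthest from the start is 2982 bp long in odd replicate 2.

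Most shared regions were built from 1 peak of each odd library: 3245 of the 3288. The overlap of the paired peaks had a median of 260 bp, which covered a median of 95.3% of the odd replicate 1 peak, and their centres lay a median of 65 bp apart (quartiles 23 and 126). Members just inside the rule shared as little as 1 bp, at a region 15804 bp from Ubac1 and at another in Dtd1, and 3 bp in B3galt1. Pairs just outside it lay 3 bp apart, in or near A730081D07Rik, Rcn1 and Glis1, and 67 odd replicate 1 regions had an odd replicate 2 peak within 100 bp without touching it. Of 3381 overlapping peak pairs, 78 shared less than 50 bp. Median width was 438 bp for odd-only (quartiles 372 and 547) and 442 bp for also-even regions (375 and 555). Regions wider than 2 kb numbered 2 among the odd-only and 31 among the also-even.

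An even peak lay over 57.2% of the shared odd regions (95% exact interval 55.5 to 58.9, counting error only), against 13.4% of all autosomal odd regions and 10.7% of the 52207 regions found in 1 odd list. The shares were alike for regions of odd replicate 1 alone (10.5%) and of odd replicate 2 alone (10.8%). Odd and even pulldowns of the same number share an input library, and this overlap is given as the division the description rests on, not as a tested result. By library, 1752 of the shared odd regions had a peak in even replicate 1 and 795 in even replicate 2, out of lists of 38664 and 24412 autosomal peaks. Both even lists had a peak at 665 regions, even replicate 1 alone at 1087 and even replicate 2 alone at 130. Without even replicate 1 the also-even share was 24.2%, so the division into odd-only and also-even rests largely on that library.

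Few odd-only regions lay close to an even peak. Their nearest even peak lay a median of 11875 bp away (quartiles 4657 and 25114), and 51 of 1406 (3.63%) had one within 500 bp. Among regions of 1 odd list with no even peak, the median gap was 13134 bp and the share within 500 bp 3.09%.

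Scores in odd replicate 2 were lower at odd-only than at also-even regions. The median was 266 for odd-only regions (quartiles 181 and 378, lowest 50.6, highest 3100) and 379 for also-even regions (quartiles 242 and 611, lowest 50.7, highest 3134). Regions in both even lists had a median of 477, those in even replicate 1 alone 353, and those in even replicate 2 alone 261. Peaks of odd replicate 2 outside the shared regions had a median of 215 (quartiles 156 and 314). The ranges of all classes overlapped. In odd replicate 1, where 99.9% of peaks sit at 3100, the score did not separate regions: none of the odd-only and 1 of the also-even regions fell below that value. Ordered by their odd replicate 2 score and divided into 4 groups of 822, the shared regions had an even peak in 41.2% of cases in the lowest group, then 49.0%, 58.0% and, in the group that starts at a score of 495, 80.7%. A peak in both even lists was found at 10.5% of the lowest and 38.8% of the highest group. The read depth behind the lists is unknown, and these values come from the contrast that chose the regions, so they are given without a test.

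**Figure D2:**
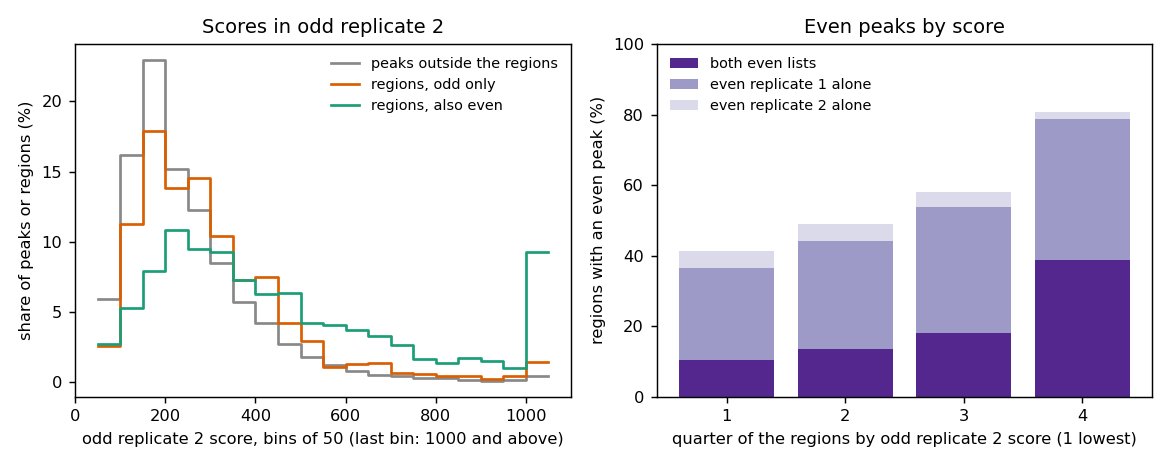
Left, share of peaks or regions (%) by odd replicate 2 score in bins of 50, for peaks outside the shared regions, odd-only regions and also-even regions, the last bin holding scores of 1000 and above. Right, share of regions (%) with an even peak in each of 4 equal groups by score, from 41.2% in the lowest to 80.7% in the highest, split by which even list holds the peak.

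Among odd-only regions, a score of 3100 in odd replicate 2 was reached at 2. The first, at chr1:190300033-190303511 and 3479 bp wide, lay outside genes, 84493 bp from the lncRNA gene Prox1os and 130945 bp from an end of Prox1, which codes for a homeodomain factor of lymphatic endothelium. The second, at chr9:71030844-71031319, lay 2657 bp upstream of the lncRNA gene Gm46119. Inside coding genes, odd-only regions with high scores were in Mansc4 (chr6:147076102-147076948, score 1867), in Pfkfb4 (chr9:109019237-109021716, 1606), which codes for a bifunctional enzyme that sets the level of fructose 2,6-bisphosphate, in Cd163l1 (chr7:140221137-140221544, 1479) and in Tmem45a2 (1356). Outside genes, further high-scoring odd-only regions lay nearest to the lncRNA genes Gm41418 (1665) and Gm35918 (1634), to C2cd4a (1556, 24612 bp away), to the pseudogene Gm13651 (1555) and to Rusf1 (1461, 7869 bp away). The nearest even peak lay between 3386 bp (near Gm41418) and 72003 bp (in Cd163l1) from these regions.

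An odd replicate 2 score of 3100 or more was reached at 30 also-even regions, nearly all tied at 3100. Which of them came first was therefore set mostly by width, and narrow regions with the same score were passed over. Of the 12 also-even regions first by score and then width, 8 lay between positions 47657733 and 47767175 of chromosome 6. They were at or beside the predicted genes Gm40369, Gm40367, Gm40365, Gm36327, Gm40363, Gm52861 and Gm52862. The promoter windows of Gm36327, Gm40364, Gm40367 and 1 of those of Gm40369 were identical over all 300 bases. These regions include the widest of all, 13021 bp, made of 7 odd replicate 1 peaks and 1 of odd replicate 2. Their even replicate 2 scores were 172 to 379, around that list's median of 265. The other 4 of the 12 were a region 11943 bp from the pseudogene Gm9923 (scores 3134 in odd replicate 2 and 2493 in even replicate 2), Tug1, Tmco4 (3100 and 1977) and the lncRNA gene Gm40237 (3100 and 977).

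Shared regions lay singly as a rule. When regions within 10 kb of one another were grouped, 3049 of 3288 stood alone, and 17 groups held 3 or more. These 17 held 97 regions, of which 77 were also-even and 20 odd-only. The largest group, 27 regions over 87293 bp of chromosome 8, lay along an array of 5S ribosomal RNA genes (Rn5s and the n-R5s genes), with 22 also-even and 5 odd-only regions. Other groups lay at tRNA genes beside Fcgr3 on chromosome 1, at Duxf3, a double homeobox gene in a tandem array, on chromosome 10 and at 2610005L07Rik on chromosome 8. Sequence in such arrays is repeated, and how the authors placed reads with several matches is unknown here. At 67 regions the centre lay in a gene of another kind and in no coding or lncRNA gene. A region in overlapping genes of these other kinds was counted once for each. Among these pairs of region and gene, 38 were with pseudogenes, 9 with transcribed pseudogenes, 5 with snRNA genes, 4 with tRNA genes and 3 with rRNA genes.

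By place, 45.8% of the shared regions had their centre in a protein-coding gene, 8.15% in a lncRNA gene, 2.04% in another kind of gene, 12.7% outside genes but within 5 kb of one, and 31.2% farther away. Regions of 1 odd list, the background from the same libraries, gave 44.8%, 7.32%, 1.68%, 10.9% and 35.3%. The share far from genes had a 95% exact interval of 29.7 to 32.9 in the shared regions, below that background. A centre within 2 kb of an end of a coding gene was found for 9.85% (8.86 to 10.9), against 7.62% (7.39 to 7.85). Odd-only and also-even regions had nearly the same share, 9.89% and 9.83%. Inside lncRNA genes, and in no coding gene, lay 6.83% of odd-only (5.57 to 8.27) and 9.14% of also-even regions (7.88 to 10.5). That these intervals overlap does not show the shares to be alike, and the difference was not tested. Intervals cover counting error only, and regions are not replicates of a pulldown.

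**Figure D3:**
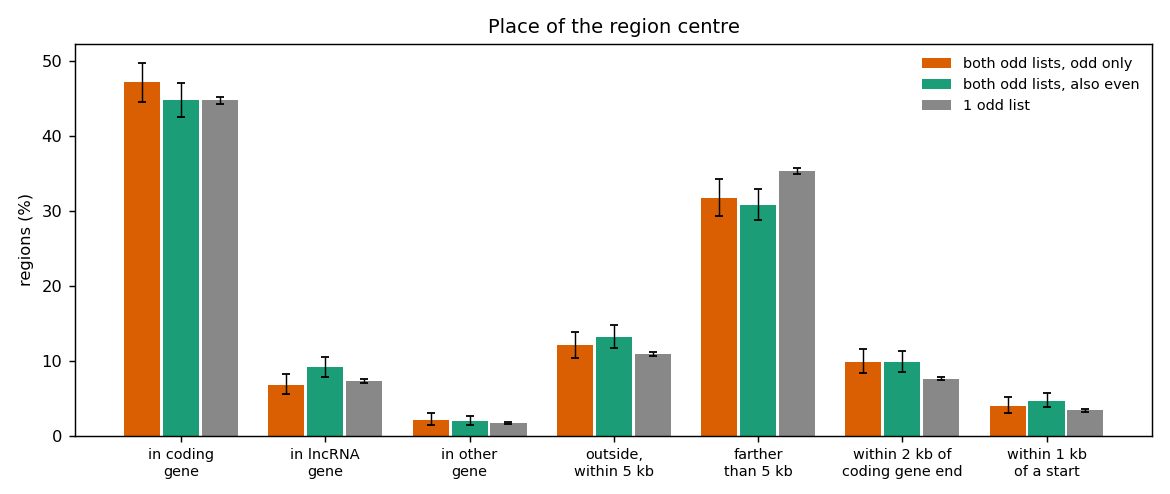
Share of regions (%) by the place of their centre, for odd-only and also-even shared regions and for regions of 1 odd list, with 95% exact binomial intervals for counting error. A centre in genes of several kinds counts as coding first, then as lncRNA. The bars for places farther than 5 kb from a gene are 31.8% and 30.8% for the shared classes and 35.3% for regions of 1 odd list.

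Distance to a start site was measured for the 3184 shared regions on chromosomes with RefSeq promoter windows, which leaves out chromosome 18. Windows were given for 16457 autosomal coding genes, fewer than the 20665 in the gene table, and starts on other chromosomes are missing too. Distances can therefore be too long, and shares near starts or over promoters too low, in every class of regions. The median distance was 27550 bp (quartiles 9725 and 79607), against 33958 bp for regions of 1 odd list. Within 1 kb of a start lay 4.4% (3.71 to 5.17), against 3.38% (3.22 to 3.54). Upstream and downstream sides were taken up in similar measure: 45.8% lay upstream of the nearest start, against 45.1%, and within 5 kb 201 lay upstream and 259 downstream. Along coding genes of at least 20 kb whose strand the promoter table gives, divided into 4 equal stretches, the stretch nearest the start held 25.8% of 1018 pairs of a shared region and its host gene, and that at the far end 27.2%. A region in overlapping genes counts once for each. For odd-only regions these shares were 22.0% and 29.3% of 440, and for also-even regions 28.7% and 25.6% of 578. Regions of 1 odd list gave 25.3% and 25.5%.

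The 56 regions over promoters touched 67 windows of 61 genes, 0.213% of the 31396 autosomal windows. A region joins the peaks of both libraries, so a window it touches need not be covered by both. At Serpinh1, Pdzd3, Prss21, Pou1f1 and Xaf1, among others, no base of the window was covered by both. Regions over promoters made up 1.18% of odd-only (0.677 to 1.91), 2.18% of also-even (1.57 to 2.96) and 1.23% of regions of 1 odd list. At 6 of the 56 (10.7%) the region lay over windows on both strands, against 5.49% of 619 in regions of 1 odd list. These gene pairs were Vps29 with Rad9b, Tada2b with Ccdc96, Bud31 with Pdap1, Cdc27 with Myl4, Rsl1d1 with 2610020C07Rik, and Ano4 with Gm30769. In the windows of Pdap1, Ano4 and Gm30769 no base was covered by both odd libraries. Odd replicate 2 scores were 501 at Vps29 and Rad9b, 437 at Tada2b and Ccdc96 and 126 at Bud31 and Pdap1. At Cdc27, a subunit gene of the anaphase-promoting complex, the score was 110 in odd replicate 2 and 188 in even replicate 2, with no peak in even replicate 1.

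Among coding promoters, the highest odd replicate 2 scores outside the chromosome 6 stretch were 1658 at Ly75, 989 at Iqcn, where the peaks of the 2 libraries share no base of the window, 908 at Vmn2r43, 868 at Vmn2r39, 751 at Camta2, which codes for a calmodulin-binding transcription activator, and 715 at Wfdc3. Tuba1c had 663 in odd replicate 2 and 947 in even replicate 2, and Il1b 264 and 627. The overlapped windows had a median GC content of 53.7% and a median of 7 CG dinucleotides, against 53% and 7 in all autosomal windows. Among coding genes alone, the 50 overlapped windows had medians of 54.5% and 7, against 57% and 14 in all coding windows. The quartiles of the CG number were 3 and 22, against 4 and 25. Searched on both strands, GGGCGG occurred in 26 of the 67 (38.8%, against 36.0% of all), CCAAT in 23 (34.3% against 37.3%), TATAAA in 4 (5.97% against 13.6%) and CACGTG in 1 (1.49% against 7.14%). The windows of the chromosome 6 copies count several times here. A match is a description of the letters and says nothing of a factor's binding.

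A single microRNA hairpin of 919 on autosomes was overlapped by a shared region, and 10 were overlapped by regions of 1 odd list. The single one was that of Mir1224 (chr16:20604452-20604536, plus strand), at an odd-only region from 20604532 to 20604847 with an odd replicate 2 score of 286. The region took in only the last few bases of this hairpin. The mature arms of Mir1224 are given with the seed, bases 2 to 8, in capitals, to identify the gene.
mmu-miR-1224-5p: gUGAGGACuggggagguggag
mmu-miR-1224-3p: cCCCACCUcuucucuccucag

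Coding genes with a shared odd region inside numbered 1322 of 20665 autosomal ones, or 6.4%, and lncRNA genes 350. With 5 kb added to each side, 4.42% of lncRNA genes had one. In 525 of the coding genes the regions were odd-only, in 686 also-even, and 111 had both classes. A single region was found in 1132, and 40 held 3 or more. Host genes were long: the median was 83349 bp against 17491 bp for all coding genes. With 5 kb added to each side, 8.12% of coding genes had a shared region, and the share was 3.95% for genes under 20 kb, 8.5% from 20 to 100 kb, 21.6% from 100 to 300 kb and 44.8% from 300 kb. Median lengths of hosts with odd-only regions alone (75150 bp) and also-even regions alone (76815 bp) were close.

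Genes with several odd-only regions were led by Tns1, which codes for tensin 1, a link between integrins and actin. Its 4 regions, all odd-only, lay between 73991273 and 74079334 of chromosome 1, and their odd replicate 2 scores were 274, 333, 130 and 250. In the last of these the peaks of the 2 odd libraries shared only 14 bp. Hydin, needed for the beating of motile cilia, held 3 odd-only regions (scores 721, 72.9 and 258) and 1 also-even region (1046). Pknox2, a homeobox gene, had 3 odd-only regions scoring 314, 202 and 191. Prkg1, the cGMP-dependent protein kinase gene, had 3 as well, with scores of 284, 183 and 537. The last was 399 bp wide and near the high-coordinate end, which is the start end of this minus-strand gene. The first lay only 48 bp from an even peak. Dscam, a neuronal adhesion molecule, had 2 odd-only (250 and 359) and 2 also-even regions (608 and 306). Dgkg, Dlg2, Exoc6b and Fsip1 held 2 odd-only and 1 also-even region each, as did the lncRNA gene 9530036O11Rik.

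Genes with several also-even regions were led by Ulk4, which held 9, of which 8 lay within 15568 bp, between 48031 and 62824 bp from its start end. Their odd replicate 2 scores were modest, 94.6 to 306 over the 9. Sorcs2, a sorting receptor gene, held 4 also-even regions with scores of 341, 211, 94.6 and 591. Cfap43, a cilium gene, held 3 also-even regions (1200, 363 and 219) and an odd-only region (126). Csgalnact1, an enzyme of chondroitin sulfate synthesis, also held 3 (367, 492 and 675) beside an odd-only region (210). Dlc1, a tumour suppressor gene, had also-even regions scoring 153, 348 and 328, and Zbtb20, a transcriptional repressor, ones of 445, 376 and 185. At Ulk4, 4 of the 9 regions had a peak in both even lists and the other 5 in 1 of them. Gm38510 and Gm40369 held 3 also-even regions each inside, as did the immunoglobulin heavy chain locus Igh (284, 782 and 1341).

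Ppargc1a, the gene of the coactivator PGC-1alpha (chr5:51454249-52115853, minus strand, 661605 bp), held 1 shared odd region, at chr5:52091632-52092017. It scored 3100 in odd replicate 1 and 173 in odd replicate 2, below the list median of 221. It was odd-only, with the nearest even peak 1724 bp away, against a median of 11875 bp over odd-only regions. It lay 24029 bp from the high-coordinate end of the gene span and 524099 bp upstream of the start in the RefSeq promoter table, at position 51567725. The span is wider than the transcript from that start, so the region is inside the annotated gene and upstream of this start at once. In all, the gene held 10 peaks of odd replicate 1, 4 of odd replicate 2, 13 of even replicate 1 and 7 of even replicate 2. The next shared region on chromosome 5 lay 1789406 bp away, in Tbc1d19.

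Gene lists written with earlier results of these data known were then counted, and 13 of the 14 are described. Of their 433 autosomal genes, 77 (17.8%) had a shared region inside or within 5 kb, against 8.12% of all coding genes. This total is not adjusted for gene length. Because length sets much of such a count, the count of each list is given beside a number by length. It is what the shares of all coding genes in the same 4 length classes would give. That number holds for all shared regions inside or within 5 kb only. Counts under another limit on score, overlap or distance have no such number to be set against. No list was tested. Slit diaphragm and foot process genes with a region numbered 13 of 44, against 9.13 by length, and 8 when peaks below the median score of their list were dropped. They were led by Magi2, a membrane scaffold (also-even, odd replicate 2 score 746), Tjp1, the tight junction protein ZO-1 (odd-only, 709), Itgb1, the beta 1 integrin chain (odd-only, 507, 4409 bp upstream of the gene), and the cadherin gene Cdh13, with 2 also-even regions (484 and 486) and an odd-only region (424). Plce1, a phospholipase C gene mutated in nephrotic syndrome, had an odd-only region (484). Synpo, Vcl, Myo1e, Anln, Parva, Pard3, Cttn and Dnm1 had 1 each, with scores from 139 to 390.

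Podocyte transcription factor genes with a region numbered 6 of 20, against 2.18 by length. The 4 highest-scoring were also-even: Zhx2 (647), Tead1, a partner of the coactivator YAP (567), Klf6 (548) and Lmx1b, which drives podocyte differentiation, with 2 regions (269 and 428). Klf15 had an odd-only region (198), and Foxc2 an also-even one at 50.7, near the lowest of all shared regions. Of 12 basement membrane genes, Col4a3 (also-even, 549) and Col4a2 (odd-only, 291) had a region, against 1.76 by length. Only 1 of the pair remained at a reciprocal overlap of 50%, or without chromosomes 8, 15 and 19.

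In the list of PGC-1 and its partners, 4 of 30 had a region, against 4.01 by length. Pparg, the adipogenic nuclear receptor gene, had an odd-only region (475) and an also-even region (174), and Esrrb an odd-only region (437) and an also-even region (389). Ncoa1, a nuclear receptor coactivator, had an also-even region (437), and the fourth gene was Ppargc1a. No gene of mitochondrial dynamics and mitophagy had one among 23, against 2.04 by length (1 with regions up to 20 kb away), and no Hox gene among 39, against 1.68. Among 36 Polycomb and chromatin regulator genes there were 4, against 3.00, and 8 with regions up to 20 kb away. These were Phc2, a PRC1 subunit (odd-only, 632), Jarid2, a PRC2 cofactor (2 also-even regions, 175 and 549), the DNA methyltransferase gene Dnmt3a (also-even, 383) and the H3K27 demethylase gene Kdm6b (odd-only, 176). Of 25 p53 pathway genes, the death receptor gene Fas (odd-only, 578) and Sesn1, a stress-induced inhibitor of mTORC1 (also-even, 436), had a region, against 1.53. Neither remained at a reciprocal overlap of 50%, and 1 of the 2 without chromosomes 8, 15 and 19.

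Actin cytoskeleton and adhesion genes had the highest count, 19 of 48 against 11.8 by length. The genes with a region had a median length of 458153 bp. The longest length class is open from 300 kb, so length was not matched further within it. Cdh12, a cadherin gene, had 2 also-even regions (622 and 898), Phactr2, a regulator of actin and protein phosphatase 1, also 2 (715 and 346), its relative Phactr1 an also-even (642) and an odd-only region (676), and Coro1c, a coronin gene, an odd-only region (398). Myo10, an unconventional myosin of filopodia, had 2 odd-only regions. Among 30 calcium and chloride channel genes there were 9, against 8.77: Ano2 with 2 also-even regions (352 and 3100), Ano10 (also-even, 928), Cacna1a (odd-only, 535), Trpm3 with 2 odd-only regions (309 and 517), Ryr3, Stim2, Ano4, Cacna1c and Ano6.

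Counts were small in the lists for matrix, tubule and other glomerular cells. Of 29 matrix and fibrosis genes, Smad3, the transducer of TGF-beta (407), and Col5a1 (266) had a region, both odd-only, against 2.40 by length. This count was 1 at a reciprocal overlap of 50% and 6 with regions up to 20 kb away. Of 25 tubule genes, Hnf4a had an also-even region (563), against 1.89, and 2 genes had a region within 20 kb. Of 22 mesangial and endothelial genes, Flt1, a VEGF receptor gene (odd-only at 145 and also-even at 444), Ehd3 (also-even, 244) and Itga8 (odd-only, 133) had one, against 2.12. Over all coding genes, 3.84% had an odd-only and 4.91% an also-even region inside or within 5 kb.

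**Figure D4:**
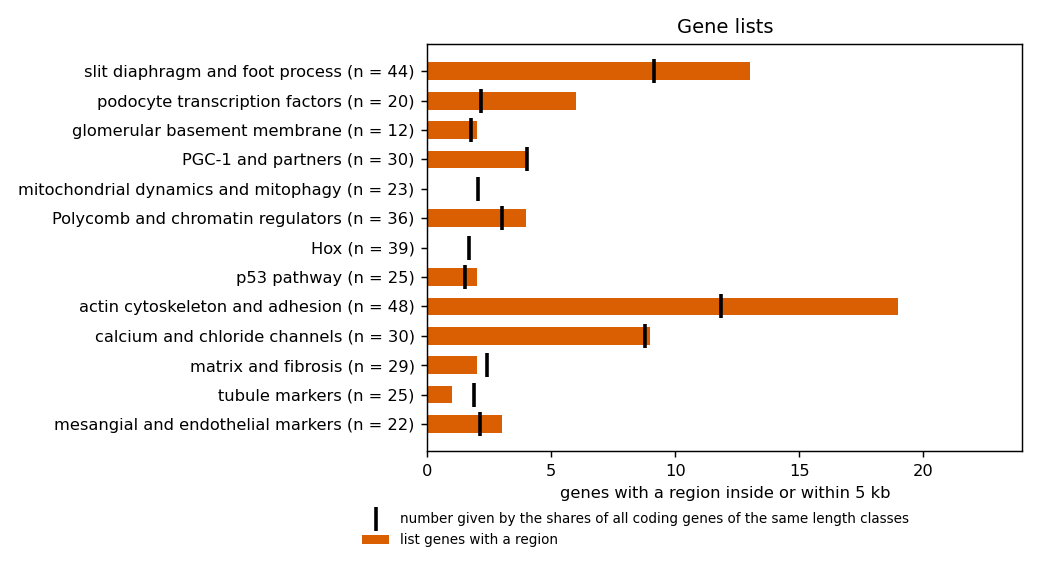
Number of genes in each of 13 lists with a shared odd region inside or within 5 kb (bars), and the number that the shares of all coding genes in the same length classes give (ticks), with the autosomal genes of each list as n. The longest class is open from 300 kb. The actin and adhesion list has 19 against 11.8, the podocyte transcription factor list 6 against 2.18, and the mitochondrial dynamics and Hox lists none.

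The shared regions were denser on chromosomes 8, 15 and 19. They numbered 2.71, 2.1 and 2.37 per Mb there, against 0.925 to 1.39 on the other 16 autosomes. All odd regions showed the same chromosomes, at 37.1, 32.6 and 34.9 per Mb against 20.1 to 24.2. The share of odd regions found in both lists was 7.29%, 6.46% and 6.80% on these chromosomes and 4.55% to 6.34% on the others. Both classes were denser there: odd-only regions stood at 1.16, 0.952 and 1.01 per Mb against 0.389 to 0.648 elsewhere, and also-even regions at 1.55, 1.15 and 1.36 against 0.536 to 0.841. Without its 3 densest 1 Mb windows, which held 74 shared regions, chromosome 8 stood at 2.17 per Mb. Read depth by chromosome was not analysed here.

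**Figure D5:**
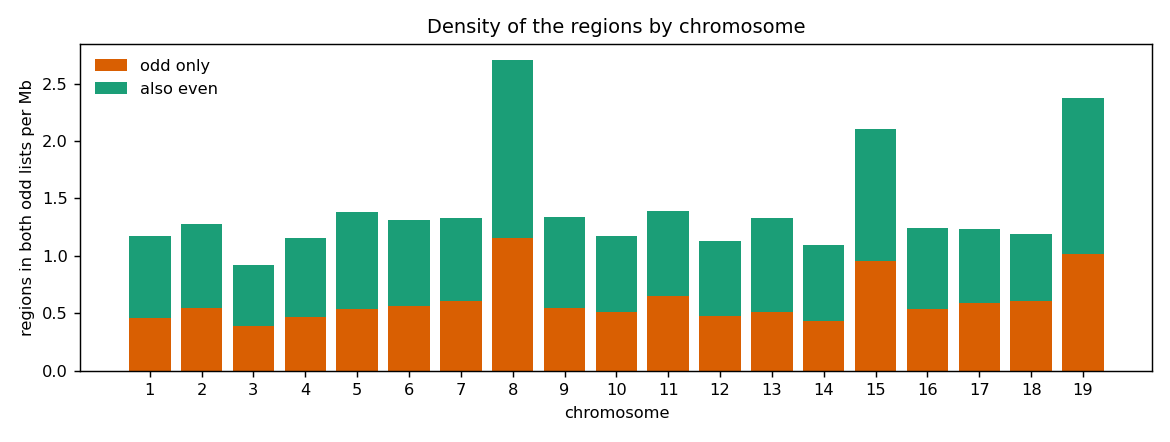
Shared odd regions per Mb on each autosome, divided into odd-only and also-even, with the span taken between the outermost odd peaks. Chromosomes 8, 15 and 19 reach 2.71, 2.1 and 2.37 per Mb, and the other autosomes lie between 0.925 and 1.39.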

How the data were processed

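Peak lists of 4 ChIRP-seq pulldowns (2 odd, 2 even) were used. The submitters' processing notes name Bowtie2 2.1.0 and the build mm10. Per the file names, the authors called each list for 1 pulldown against 1 input library, without pooling, and peak names start with MACS; for its version, its threshold and the handling of duplicate or multiply placed reads nothing is known here. Peak scores were deposited by the authors without a stated scale. A series-wide list that joins the 4 lists was not used. Depth is unknown, so no interval for a peak was formed.

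Peaks were merged at 1 bp or more of overlap, and positions are 1-based on mm10. Genes, starts and promoter windows came from RefSeq tables of GRCm38.p6 without exons, so exon and intron were not separated; symbols of 446 of 447 list entries were matched. Shares have 95% exact binomial intervals for counting error. No test was run, since members were chosen by peak presence in the only 2 odd libraries. Members and gene lists were chosen with earlier results of these data known. Named were Tug1 and Ppargc1a, the 12 highest-scoring regions per class (ties by width), the 10 genes with most regions per class, up to 4 genes per list and 10 promoters; others, including the promoters of Tuba1c, Vps29, Tada2b and Il1b, were picked after their values were seen. A region and a gene list are not reported here. Merging and assignment were tested on simulated data. Software was scipy 1.17.1, pandas 2.3.3 and numpy 2.4.6 under Python 3.11.15, with figures from matplotlib 3.10.9.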

Additional observations from a re-analysis of the deposited data

How the results depend on the processing

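Of 92 recalculated values other than single gene lists, 78 stayed within the interval of a share or within 1.5 times of a count or score difference. Counts and shares cannot change sign. The difference in median odd replicate 2 score between also-even and odd-only regions could, and it kept its sign in every setting. The also-even share was 24.2% to 53.3% when 1 even library was left out. With 1 odd library left out, all peaks of the other list stood in for shared regions and gave 43.6% to 46.4% in coding genes, 1.41% to 1.98% in other genes, 11.1% to 11.4% within 5 kb, 33.3% to 36.0% farther away and 7.58% to 8.24% within 2 kb of a coding gene end. Counting any overlap in place of the centre gave 3.07% in other genes and 11.0% within 5 kb. The share at coding gene ends was 5.60% within 1 kb and 18.4% within 5 kb. Of 112 values for single lists, 10 differed by more than 1.5 times, among them slit diaphragm genes, of which 8 were left when peaks under their list's median score were dropped, where nearly all odd replicate 1 peaks tie. A reciprocal overlap of 50% left 2440 shared regions and that score limit 2373. Leaving out 1 Mb windows at 3 times the median density gave 3178 and leaving out chromosomes 8, 15 and 19 gave 2596, both added after seeing the data. No paired analysis was possible because no result comes from a test. Depth, unknown here, limits every count of peaks.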

Other observations

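Outside the autosomes, chromosome X had 194 regions in both odd lists among 3644 odd regions (5.32%), of which 56.7% were also in an even list, values close to those of the autosomes. Chromosome Y had 54 among 242 (22.3%), of which 85.2% were also-even, with a median odd replicate 2 score of 636. Odd peaks on the mitochondrial chromosome made 3 regions, all from odd replicate 1, and none was shared. None of these values was tested.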
